A study of Mus musculus with 10 samples.

Results

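The Ikaros family of zinc finger transcription factors was described across sorted regulatory T cells (Treg cells) of the mouse. Its 5 genes, Ikzf1 to Ikzf5, were taken by symbol from the 13252 genes in the table, and all 5 passed the minimum mean of 10 normalized counts used for testing. Cells sorted as CD4+RFP+GFP+ are labelled Helios+ and cells sorted as CD4+RFP+GFP- are labelled Helios-, with 5 RNA-seq libraries of each. The labels tie GFP to Helios, the protein of Ikzf2, and leave RFP unexplained. The design text of the series speaks of a knockout of Helios instead. Groups were taken from the label of each sample, and every difference is thus between sorted populations and not an effect of removing Helios. The sources used here give no strain, age or treatment. They also do not say that the libraries of a group came from separate mice. The p-values therefore measure only the spread between libraries, which may be technical.

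Ikaros family proteins bind DNA through a cluster of zinc fingers near the amino terminus and pair with each other through further fingers at the carboxyl terminus. The shared carboxyl fingers allow mixed pairs of different members, so the relative amounts of the members set which pairs can form. Ikaros (Ikzf1) and Aiolos (Ikzf3) are abundant in lymphocytes and recruit the NuRD remodelling and deacetylase complex to genes. Helios (Ikzf2) is found in T cells and is present in a large part of Treg cells. Eos (Ikzf4) is a partner of Foxp3, the factor that defines Treg cells, in silencing genes. Pegasus (Ikzf5) is the most divergent member.

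The second finger of each member is shown because near-identical stretches could let reads of one member be counted for another. In each member the coding frame with the most matches to the C2H2 zinc finger pattern was taken from the GENCODE M21 transcripts (GRCm38, the assembly also called mm10). This pattern matched 6 times in Ikzf1, Ikzf2, Ikzf3 and Ikzf4 and 5 times in Ikzf5. Fingers were numbered by the order of the matches and were not aligned. The second finger of Ikzf5 therefore need not correspond to that of the other members. The second finger, at residue 167 of Ikzf1, 148 of Ikzf2, 147 of Ikzf3, 189 of Ikzf4 and 112 of Ikzf5, is coded by the following 63 bases, with the 4 codons of the zinc-binding residues in capitals.
Ikzf1 (chr11:11754024-11754086, plus strand): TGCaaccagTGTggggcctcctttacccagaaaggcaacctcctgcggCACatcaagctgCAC
Ikzf2 (chr1:69570581-69570643, minus strand): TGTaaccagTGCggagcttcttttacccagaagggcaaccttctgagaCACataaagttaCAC
Ikzf3 (chr11:98488940-98489002, minus strand): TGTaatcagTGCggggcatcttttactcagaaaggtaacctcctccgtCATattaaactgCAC
Ikzf4 (chr10:128640229-128640291, minus strand): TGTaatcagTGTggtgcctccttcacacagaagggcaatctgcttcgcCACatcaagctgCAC
Ikzf5 (chr7:131392501-131392563, minus strand): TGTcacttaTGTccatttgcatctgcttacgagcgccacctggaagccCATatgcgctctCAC

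In the second finger Ikzf1, Ikzf2, Ikzf3 and Ikzf4 were identical to one another at 48 to 53 of 63 bases. The second finger of Ikzf5 was identical to theirs at 26 to 30. Since it may be a different finger, these values do not measure how far a shared finger has diverged. No other finger was compared. The second finger is coded in exon 6 of the Ikzf1 transcript, exon 5 of those of Ikzf2, Ikzf3 and Ikzf4, and exon 4 of that of Ikzf5. Over the whole coding sequence, identity between 2 members ranged from 44.7% for Ikzf4 with Ikzf5 to 60.6% and 60.7% for Ikzf1 with Ikzf2 and with Ikzf3. The longest run of identical bases between the coding sequences of any 2 members was 26, for Ikzf1 with Ikzf3. Over whole transcripts it was 32, for Ikzf2 with Ikzf4. The read length is not given in the sources used here.

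Libraries held between 4872348 and 6948692 recovered reads. The Treg marker Foxp3 averaged 3570.1 ± 201 in Helios+ and 3526 ± 226 normalized counts in Helios- cells (SD, n = 5 each), and Cd4 3208 ± 276 in Helios+ and 3334 ± 446 in Helios- cells. All 10 markers of T and Treg cells were above the minimum mean. Among 10718 genes tested with limma on log2(normalized count + 1), 24.8% had a Benjamini-Hochberg adjusted p under 0.05, with 14.1% higher and 10.7% lower in Helios+ cells, and the groups did not overlap for 19.5%. With the replicate number as a block, 37.3% were called. These were bulk libraries, so fewer cells of a type and less RNA per cell cannot be told apart.

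Apart from Ikzf2, whose reporter defined the sort, 3 of the other 4 members passed the limma test, where 24.8% of all tested genes did. Ikzf4 was higher in Helios+ cells, and Ikzf1 and Ikzf3 were lower. Ikzf5 was not called. The same 3 members were called, in the same directions, with edgeR and DESeq2 on the recovered reads, with the replicate block and with every library left out in turn. The groups did not overlap for any of these 3, nor for Ikzf2, where 19.5% of tested genes did not overlap.

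Ikzf2 lies on the minus strand of chromosome 1 (69531214 to 69687245). It had 9667, 10255, 10478, 10528 and 10906 normalized counts in Helios+ replicates 1 to 5, against 418, 491, 459.8, 492 and 572 in Helios- replicates 1 to 5. Every Helios+ library was far above every Helios- library. Means were 10367 ± 456 in Helios+ and 487 ± 56.5 in Helios- cells (SD, n = 5 each), which rest on 9225 to 12261 reads per Helios+ library and 357 to 588 per Helios- library. This checks the labels and is no finding, since GFP selected the cells. Helios- libraries held 4.69% of the Helios+ mean. The coefficient of variation was 4.40% in Helios+ and 11.6% in Helios- libraries.

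**Figure D1:**
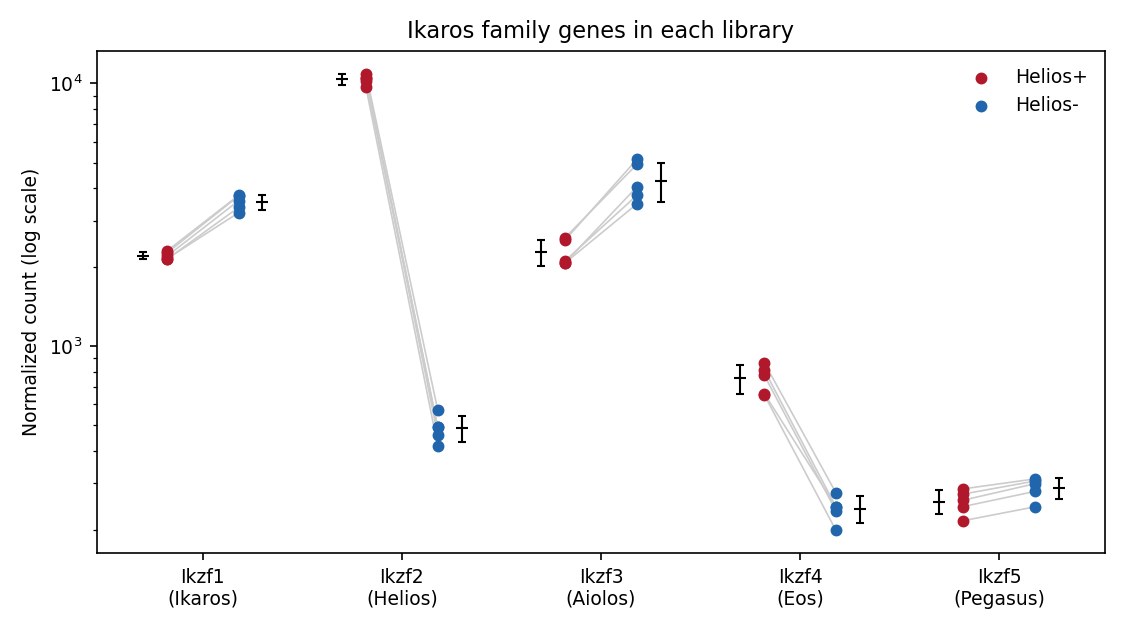
Normalized counts on a log scale of the 5 Ikaros family genes, where each point is a library, 5 of Helios+ (red) and 5 of Helios- (blue) cells, grey lines between libraries of equal replicate number, and black bars for the mean and SD. Ikzf2 and Ikzf4 are higher in every Helios+ library, Ikzf1 and Ikzf3 are lower in every Helios+ library, and the groups overlap for Ikzf5.

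Ikzf4 (Eos) moved the same way as Ikzf2. It lies on the minus strand of chromosome 10 (128630843 to 128645991). It had 660.2, 653, 812, 775 and 866 normalized counts in Helios+ replicates 1 to 5, against 245, 199, 245, 236 and 276 in Helios- replicates 1 to 5. The lowest Helios+ library was well above the highest Helios- library. Means were 753 ± 93.9 in Helios+ and 240.2 ± 27.7 in Helios- cells (SD, n = 5 each), a 3.14-fold difference. On the log2(normalized count + 1) scale the change was 1.64 ± 0.10 (SE; 95% interval 1.43 to 1.86; limma adjusted p = 1e-08). It was higher in 5 of 5 replicate numbers, by 1.43 to 1.73 on that scale.

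Ikzf1 (Ikaros) was lower in Helios+ cells. It lies on the plus strand of chromosome 11 (11685003 to 11772926). Its normalized counts were 2149, 2262, 2302, 2141 and 2199.8 in Helios+ replicates 1 to 5, against 3221, 3731, 3752, 3374 and 3578 in Helios- replicates 1 to 5. The Helios+ libraries lay within a narrow range, with a coefficient of variation of 3.18%, against 6.51% in Helios- libraries. Means were 2211 ± 70.4 in Helios+ and 3531 ± 229.9 in Helios- cells (SD, n = 5 each), so Helios+ cells held 62.6% of the Helios- level. The log2 change was -0.67 ± 0.06 (SE; 95% interval -0.81 to -0.54; limma adjusted p = 1.05e-06), and between -0.72 and -0.58 within replicate numbers.

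Ikzf3 (Aiolos) was also lower in Helios+ cells. It lies on the minus strand of chromosome 11 (98464902 to 98546031). It had 2536, 2588, 2080.1, 2114 and 2076 normalized counts in Helios+ replicates 1 to 5, against 5139, 4919.7, 4036, 3749 and 3476 in Helios- replicates 1 to 5. The 2 highest libraries of each group were those of replicates 1 and 2. Means were 2279 ± 259.5 in Helios+ and 4264 ± 730.2 in Helios- cells (SD, n = 5 each), or 53.4% of the Helios- level. The log2 change was -0.89 ± 0.11 (SE; 95% interval -1.13 to -0.66; limma adjusted p = 2.1e-05). It was lower in 5 of 5 replicate numbers, with log2 changes of -1.02 to -0.74. Ikzf3 varied more between libraries than Ikzf1, with coefficients of variation of 11.4% in Helios+ and 17.1% in Helios- libraries.

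Exact two-sided permutation tests of the mean log2 value gave p = 0.00794 for each of Ikzf1, Ikzf3 and Ikzf4, the smallest possible p with 252 assignments. With sign flips inside the 5 replicate numbers, the exact p was 0.0625 for each, again the smallest possible.

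Ikzf5 (Pegasus), on the minus strand of chromosome 7 (131388652 to 131410521), had the lowest count of the family in Helios+ cells. It had 245, 259, 286, 217 and 274 normalized counts in Helios+ replicates 1 to 5, against 280.0, 299.5, 312, 245 and 307 in Helios- replicates 1 to 5. The groups overlapped, although each Helios+ library was below the Helios- library of its own number. Means were 256 ± 26.9 in Helios+ and 289 ± 27.5 in Helios- cells (SD, n = 5 each). The log2 change was -0.17 ± 0.09 (SE; 95% interval -0.37 to 0.03; limma adjusted p = 0.212; exact permutation p = 0.111). With the replicate block the limma adjusted p was 0.058. In GENCODE M21, 84.5% of the exon bases of Ikzf5 overlap another gene, and 81.3% overlap Pstk, a kinase gene on the opposite strand. The library kit marks strand, but the strand setting of the counting is not given in the sources used here. Without it, reads of Ikzf5 and Pstk cannot be told apart. Pstk averaged 72.4 ± 12.8 in Helios+ and 67.5 ± 16.4 normalized counts in Helios- cells (log2 change 0.12 ± 0.18, limma adjusted p = 0.689). For the other 4 members at most 1.24% of exon bases overlap another gene.

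B cells also express Ikzf1 and Ikzf3 strongly, so B cell transcripts were measured beside them. All 10 B cell markers were detected, and their summed normalized counts were 1926 to 2825 in Helios+ and 2232 to 3347 in Helios- libraries. The sum was lower in Helios+ libraries in 5 of 5 replicate numbers, at 80.0% to 90.7% of the Helios- library. On means it stood at 85.6% of the Helios- level, where Ikzf1 stood at 62.6% and Ikzf3 at 53.4%. Of the 10 markers 1, the B cell factor gene Ebf1, was called lower by limma (113 ± 18.7 normalized counts in Helios+ against 150.1 ± 20.8 in Helios- cells; adjusted p = 0.0293) and 0 were called higher, also before adjustment and with edgeR and DESeq2. Leaving out Helios+ replicate 2, 3, 4 or 5 or Helios- replicate 1 or 4 ended the call of Ebf1, with adjusted p up to 0.0834. With the replicate block 6 markers were called lower. Over all tested genes limma called 10.7% lower, and 18.5% with the block. Among Helios- libraries replicate 1 had the highest B cell sum (3347), with the highest Ikzf3 and the lowest Ikzf1. The other Helios- libraries did not keep this order. Replicate 4 had the next highest sum (3131) with Ikzf3 at 3749, and replicate 2 the lowest sum (2232) with Ikzf3 at 4919.7. The part of B cell RNA in the Ikzf1 and Ikzf3 differences was not tested.

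Comparison of levels between genes used normalized counts per kb of annotated exons. In Helios+ cells the order was Ikzf2 (893 ± 39.3 per kb), Ikzf1 (383 ± 12.2), Ikzf3 (260.3 ± 29.6), Ikzf4 (126 ± 15.7) and Ikzf5 (44.8 ± 4.71; SD, n = 5). No 2 neighbours in this order overlapped. In Helios- cells Ikzf1 (611 ± 39.8 per kb) and Ikzf3 (487 ± 83.4) came first and overlapped each other. Ikzf5 (50.4 ± 4.81), Ikzf2 (41.9 ± 4.87) and Ikzf4 (40.1 ± 4.62) followed, with ranges that overlapped as well. Ikzf2 was above 98.7% of 11945 genes with an exon length in Helios+ cells and above 58.4% in Helios- cells. Ikzf4 was above 84.3% of genes in Helios+ and 57.3% in Helios- cells, while Ikzf1 was above 96.3% in Helios+ and 97.8% in Helios- cells.

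The order of Ikzf1 and Ikzf3 depended on the length used. Exons of Ikzf3 span 8.754 kb in all transcripts together but 3.658 kb in its longest coding transcript, against 5.777 and 5.163 kb for Ikzf1. Per kb of the longest coding transcript, Ikzf3 stood above Ikzf1, at 623 ± 70.9 against 428 ± 13.6 in Helios+ cells and at 1166 ± 199.6 against 684 ± 44.5 in Helios- cells. Which of the pair is the more abundant transcript is therefore not settled by these counts.

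Summed over the family, the values were 15866 ± 393 in Helios+ and 8811 ± 672 normalized counts in Helios- cells (SD, n = 5 each). Without Ikzf2 the sum was 5499 ± 193 in Helios+ and 8324 ± 705 in Helios- cells, so the other 4 members together held 66.1% of the Helios- level. The sum without Ikzf2 was 5247 to 5763 in Helios+ and 7604 to 9149 in Helios- libraries, with no overlap. Per kb of annotated exons the family total was 1706 ± 40.1 in Helios+ and 1231 ± 80.5 in Helios- cells, a 1.39-fold difference in place of 1.80-fold in counts. Both totals include Ikzf2, whose reporter defined the sort, so their rise is a description. Without Ikzf2 the sum per kb was 813 ± 22.5 in Helios+ and 1189 ± 82.9 in Helios- cells, or 68.4% of the Helios- level.

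The makeup of the family differed accordingly. Of the family's counts in Helios+ cells, Ikzf2 made up 65.3% ± 1.57, Ikzf3 14.4% ± 1.85, Ikzf1 13.9% ± 0.40, Ikzf4 4.74% ± 0.52 and Ikzf5 1.61% ± 0.15 (SD, n = 5). In Helios- cells Ikzf3 made up 48.2% ± 5.02, Ikzf1 40.2% ± 3.63, Ikzf2 5.57% ± 0.96, Ikzf5 3.28% ± 0.33 and Ikzf4 2.75% ± 0.47. None of these 5 shares overlapped between the groups. Shares within a library do not depend on the scaling between libraries. They do depend on gene length. Per kb of annotated exons Ikzf2 held 52.3% ± 1.45 of the family in Helios+ and 3.43% ± 0.55 in Helios- cells, and Ikzf4 7.36% ± 0.82 and 3.28% ± 0.53 in Helios+ and Helios- cells. When Ikzf2 is high the share of every other member is lower by construction, and the share of Ikzf4 was higher in Helios+ libraries even so.

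**Figure D2:**
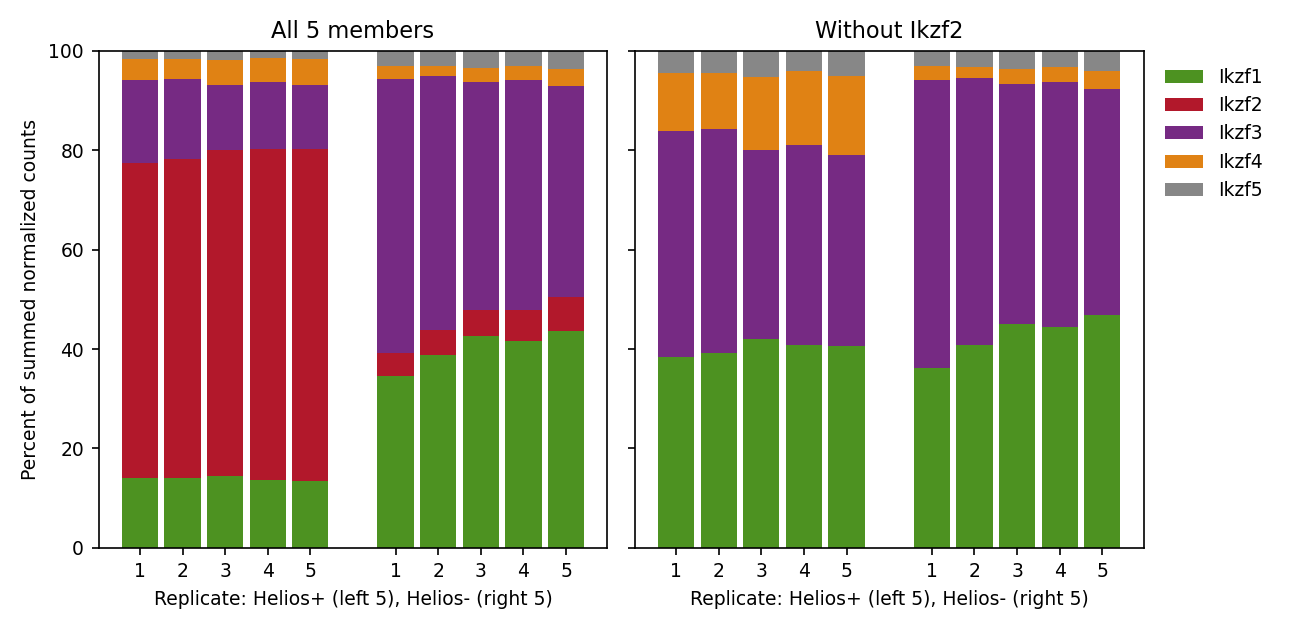
Percent of the summed normalized counts of the family held by each member, with a bar for each library (Helios+ on the left, Helios- on the right of each panel), for all 5 members and for the 4 members other than Ikzf2. Ikzf2 takes 63.4% to 66.8% of the family in Helios+ and 4.50% to 6.97% in Helios- libraries, and without Ikzf2 the Ikzf4 segment is larger in every Helios+ library.

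With Ikzf2 left out of the total, Ikzf4 made up 13.7% ± 2.05 of the counts of the other 4 members in Helios+ and 2.92% ± 0.53 in Helios- cells. Its range was 11.3% to 15.99% in Helios+ and 2.17% to 3.62% in Helios- libraries. Ikzf3 made up 41.4% ± 3.55 in Helios+ and 51.0% ± 4.85 in Helios- cells, again without overlap, although the ranges nearly met at 45.4% and 45.5%. Ikzf1 made up 40.2% ± 1.39 in Helios+ and 42.6% ± 4.19 in Helios- cells, and the groups overlapped. Ikzf5 made up 4.66% ± 0.46 in Helios+ and 3.48% ± 0.38 in Helios- cells without overlap, so a gene with no called change held a larger share where Ikzf1 and Ikzf3 were lower.

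Ratios within a library set 2 members beside each other without regard to the scaling between libraries. The ratio of Ikzf2 to Ikzf4 was 12.6 to 15.7 in Helios+ and 1.71 to 2.47 in Helios- libraries, a log2 difference of 2.77. This is given as a description, since the sort selected the cells by Ikzf2. The ratio of Ikzf3 to Ikzf1 was 0.90 to 1.180 in Helios+ and 0.97 to 1.60 in Helios- libraries. Its log2 difference was -0.22 (exact two-sided permutation p = 0.183, and 0.183 adjusted over both ratios), which did not exceed the spread between libraries. It was lower in 5 of 5 replicate numbers (exact sign-flip p = 0.0625, the smallest possible).

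**Figure D3:**
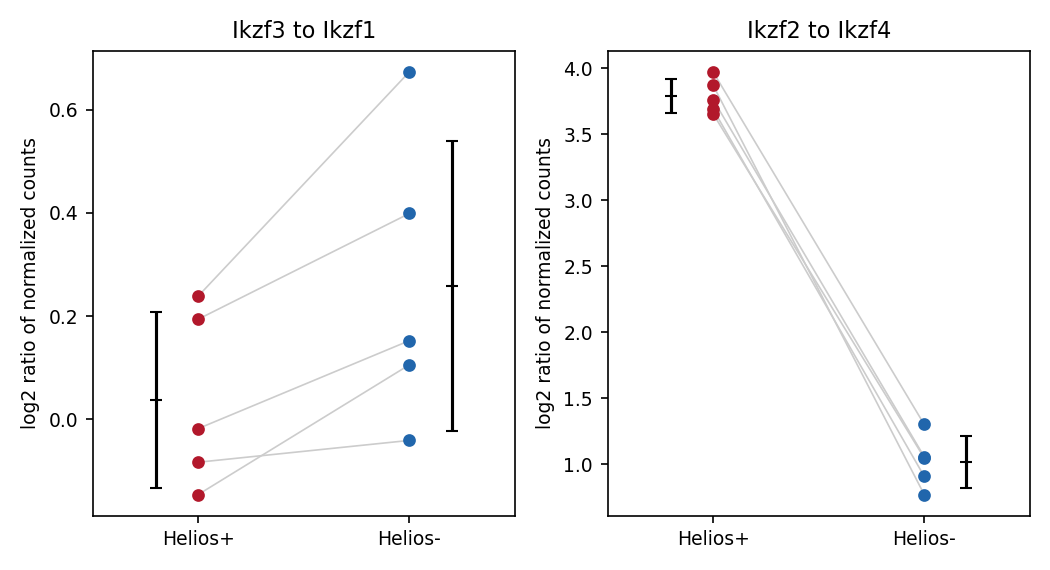
Log2 ratio of the normalized counts of Ikzf3 to Ikzf1 (left) and of Ikzf2 to Ikzf4 (right) where points are libraries, 5 of Helios+ and 5 of Helios- cells, with grey lines between equal replicate numbers and bars for the mean and SD. The groups overlap for Ikzf3 to Ikzf1, while the Ikzf2 to Ikzf4 ratio is 3.66 to 3.97 in Helios+ and 0.77 to 1.30 in Helios- libraries.

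Genes with the most similar pattern were found by the root mean square difference of centred log2 values over the 10 libraries, among 7951 named genes with a mean of at least 50. These genes were chosen for their values in the same libraries, so their changes are descriptions with no test. For Ikzf2 they were Rgs9, a regulator of G protein signalling, with a difference of 0.27, Mctp1, a calcium-binding membrane protein gene (0.44), and Tigit, an inhibitory receptor (0.46), where the median over all genes was 2.23. For Ikzf4 they were the integrin subunit Itgb1 (0.12), the transcription factor Runx2 (0.14) and Tnfrsf4, which encodes the costimulatory receptor OX40 (0.15; median 0.87). Runx2 averaged 212 ± 21.01 in Helios+ and 63.8 ± 11.1 normalized counts in Helios- cells (log2 change 1.73 ± 0.13 SE). For Ikzf1 they were Arhgef11 (0.06), the membrane skeleton gene Add3 (0.06) and the RNA-binding protein gene Rbms1 (0.07; median 0.37). For Ikzf3 they were Pik3r5, a regulatory subunit of phosphoinositide 3-kinase gamma (0.09), the cytokine receptor-like gene Crlf3 (0.13) and Srpk1, a kinase of splicing factors (0.13; median 0.50). Pik3r5 averaged 705 ± 104 in Helios+ and 1287 ± 132 normalized counts in Helios- cells (log2 change -0.87 ± 0.10 SE). For Ikzf5 they were Spata2, Kpna4 and Trim62, at 0.07 each.

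Genes of complexes through which the family acts were measured next. Of 14 tested genes of the NuRD complex, the remodelling and deacetylase assembly bound by Ikaros proteins, limma called 3, Mta3 higher and Chd3 and Mbd2 lower, where 24.8% of all tested genes were called, with a median log2 change of 0.07 against -0.02 over all genes tested. The subunit Mta3 had 761 ± 30.1 in Helios+ and 646 ± 40.7 normalized counts in Helios- cells (log2 change 0.24 ± 0.06, adjusted p = 0.0124). Chd3, a remodelling ATPase, had 5613 ± 439.8 in Helios+ and 6759 ± 702 in Helios- cells (-0.27 ± 0.08, limma adjusted p = 0.0305), and Mbd2, a reader of methylated DNA, 1243 ± 44.1 and 1440.3 ± 84.3 in Helios+ and Helios- cells (-0.21 ± 0.06, limma adjusted p = 0.0181). Quantile normalization ended the calls of Chd3 and Mbd2. So did leaving out Helios+ replicate 2, 3 or 5 or Helios- replicate 2 or 4 for Chd3 (adjusted p up to 0.0887), and Helios+ replicate 4 or Helios- replicate 5 for Mbd2 (up to 0.0538). The deacetylase gene Hdac1 was not called without the block (log2 change 0.22 ± 0.08, limma adjusted p = 0.0659) but was with it (limma adjusted p = 0.00634). Quantile normalization called 3 NuRD genes higher and 0 lower. With the replicate block 4 were higher and 2 lower, where 37.3% of all tested genes were called.

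Of 11 tested CtBP and Sin3 corepressor genes, limma called 0 higher and 0 lower, where 24.8% of all tested genes were called. Before adjustment 1 was higher and 2 were lower at p under 0.05. On this list edgeR called 1 higher and 0 lower, DESeq2 1 higher and 1 lower, and limma with the replicate block 1 higher and 2 lower. The block called 37.3% of all tested genes. Ctbp1, a corepressor that Eos is known to recruit, had 731 ± 74.2 in Helios+ and 768 ± 99.1 normalized counts in Helios- cells. The member with the smallest p was Suds3, a Sin3 complex subunit (log2 change 0.23 ± 0.08, limma adjusted p = 0.0538). The corepressor genes Rcor1 and Ncor1 had log2 changes of -0.15 and -0.14 and were not called without the block. With the replicate block Suds3 was called higher (limma adjusted p = 0.00257) and Ncor1 lower (0.0128), while Rcor1 was not called (0.073). The groups did not overlap for Ncor1, where 19.5% of all tested genes did not overlap.

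Of 18 tested genes of the BAF remodelling complex, limma called 4 lower and 1 higher in Helios+ cells, where 24.8% of all tested genes were called, 10.7% lower. Counted in either direction, 5 of 18 is near the 24.8%. The 4 lower calls were a larger part of the list than 10.7%, and this difference was not tested. The list had a median log2 change of -0.12 against -0.02 over all genes tested. The DNA-binding subunit Arid1a had 5806 ± 231 in Helios+ and 7441 ± 428 normalized counts in Helios- cells (-0.36 ± 0.07, adjusted p = 0.000867). The ATPase Smarca2 changed by -0.33 ± 0.06 (limma adjusted p = 0.000644) and the subunit Pbrm1 by -0.25 ± 0.06 (limma adjusted p = 0.00834), a call that quantile normalization ended. Arid2 was lower by -0.17 ± 0.06 (limma adjusted p = 0.0459), a call that ended when any single library except Helios+ replicate 4 and Helios- replicate 3 was left out (up to 0.104), and with edgeR, TMM factors, quantile normalization or no filter. The core subunit Smarcb1 was higher by 0.26 ± 0.08 (limma adjusted p = 0.0223), a call that ended without replicate 2 or 5 of either group (up to 0.0629). Quantile normalization called 2 BAF genes higher and 2 lower, and the replicate block 1 higher and 8 lower, where the block called 37.3% of all tested genes, 18.5% lower.

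The ubiquitin ligase built around cereblon destroys Ikaros and Aiolos proteins in human cells treated with thalidomide analogs. Of 13 tested genes of this ligase and its regulators, limma called 0 higher and 0 lower, where 24.8% of all tested genes were called. The counts were also 0 and 0 at p under 0.05 before adjustment and with edgeR and DESeq2. With the replicate block 1 was called higher, where 37.3% of all tested genes were called. Cereblon itself, Crbn, had 631 ± 38.6 in Helios+ and 603 ± 37.1 normalized counts in Helios- cells (log2 change 0.06 ± 0.07, limma adjusted p = 0.547). The 4 members with the smallest p were Cops3 (log2 change -0.17), Cops6 (0.19), Cops2 (0.13) and Rbx1 (-0.16).

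**Figure D4:**
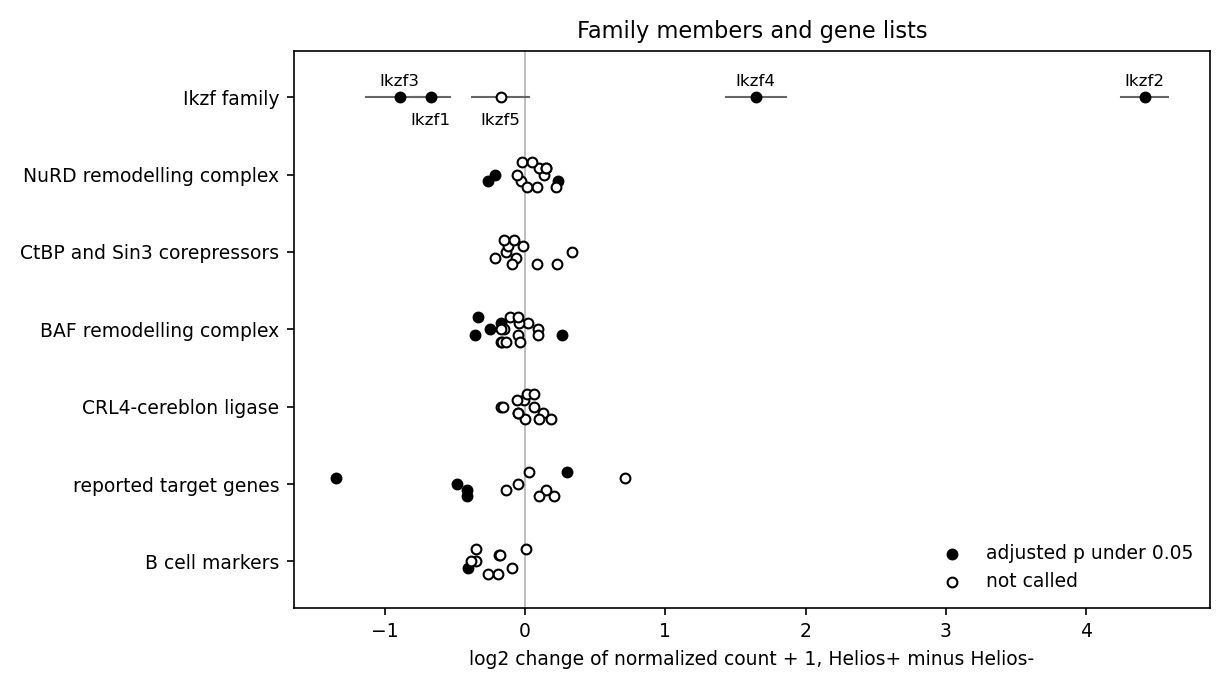
Change in log2(normalized count + 1), Helios+ minus Helios-, for the 5 family members, with 95% intervals, and for each tested gene of 6 lists, with a point per gene that is filled where the limma adjusted p is under 0.05. Changes of the NuRD, corepressor, BAF and cereblon ligase genes lie between -0.36 and 0.34. Ikzf1, Ikzf3, Ikzf4 and Ikzf2, whose reporter defined the sort, lie outside that range. Reported target genes span -1.35 to 0.71, a range that includes the changes of Ikzf1 and Ikzf3. B cell markers span -0.41 to 0.01.

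Genes reported as targets of the family were divided. Of 12 tested, limma called 4 lower, namely Satb1, Dtx1, Tcf7 and Bcl2, and 1, Stat5a, higher, where 24.8% of all tested genes were called, 10.7% lower. Quantile normalization called 3 lower and 3 higher, and the replicate block 4 lower and 2 higher. Some of these were already known to differ in these libraries when the list was drawn up, so the count is no independent evidence. The chromatin organizer Satb1 changed most, with 2922 ± 181 in Helios+ and 7458 ± 625 normalized counts in Helios- cells. Dtx1, a ubiquitin ligase of the Notch pathway, had 1200.3 ± 78.0 in Helios+ and 1697 ± 269 in Helios- cells (log2 change -0.49 ± 0.10, limma adjusted p = 0.00158). Tcf7, the gene of TCF1, changed by -0.41 ± 0.09 (limma adjusted p = 0.00303), and the survival gene Bcl2 by -0.42 ± 0.11 (limma adjusted p = 0.0127), a call that quantile normalization ended. Stat5a, which carries interleukin-2 signals, changed by 0.30 ± 0.09 (limma adjusted p = 0.0313), a call that ended when any single library except Helios+ replicate 1 and Helios- replicates 3 and 5 was left out (up to 0.0826).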

How the data were processed

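RNA was sequenced from sorted mouse Treg cells, 5 Helios+ and 5 Helios- libraries, made per the labels' protocols from total RNA with a stranded kit for picogram input. The submitters' processing notes name mm10, HISAT2 2.0.4, HTSeq and DESeq2, and give no role for any of them. The sources used here do not give the annotation, strand setting and gene filter of the counting. The authors deposited a normalized signal, in which each library's read counts are divided by a single size factor. All values (100%) were whole multiples of the smallest value of their library within 0.001, which recovered the reads. Columns were matched to samples by the label that names them.

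Genes averaging 10 or more normalized counts were tested with limma 3.58.1 in R 4.3.3 (trend, robust) on log2(normalized count + 1), a scale that understates changes of low genes, with Benjamini-Hochberg adjustment over all 10718 tested genes and a threshold of 0.05. The fit was tested on simulated data. Alternatives were the replicate number as a block, edgeR 4.0.16, DESeq2 1.42.0, TMM and quantile scaling, pseudocounts of 0.5 and 5, other filters, and leaving out libraries. Single values had exact two-sided permutation tests (scipy 1.17.1).

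Coordinates, exon lengths and transcript sequences came from GENCODE M21 on GRCm38 (mm10), in which 90.1% of the symbols matched a single gene. Equal replicate numbers were taken to pair libraries, since the deviations of the Helios+ and Helios- library of a number from their group means correlated at 0.146 to 0.481 across genes. The minimum set was 0.1, and the median was -0.03 for unequal numbers. Some unequal numbers also passed this minimum. These were Helios+ replicate 3 with Helios- replicate 5 (0.117) and Helios+ replicate 5 with Helios- replicate 3 (0.113). The main limma fit had group only and was not paired. Pairing entered only the replicate block, the sign flips and the comparisons within replicate numbers.

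The members and gene lists were chosen with earlier results of these data known. Named were the members, Foxp3, Cd4, exon-overlapping genes, the 3 genes of most similar pattern to each member, and the 4 members of each list with the smallest p, plus any count of 5 or fewer. A gene that this rule names is not reported here. Ctbp1 and Crbn were named by role, after their values were seen. All tested myeloid, CD8 and NK cell markers were named as well.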

Additional observations from a re-analysis of the deposited data

How the results depend on the processing

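Ikzf1, Ikzf2, Ikzf3, Ikzf4 and Ikzf5 kept their direction and their side of the threshold under all 24 alternatives, with log2 changes of -0.71 to -0.59, 4.36 to 4.48, -0.96 to -0.78, 1.58 to 1.70 and -0.23 to -0.11. The adjusted p of Ikzf5 ranged from 0.058 to 0.444. The replicate block changed no call among the members. It called 4000 genes in all, with 1979 lower, against 2655 and 1143 without it. Leaving out single libraries or both of a number gave 1940 to 2907 calls, with 748 to 1293 lower, the fewest without both libraries of replicate 4. Counts per kb of annotated exons changed the differences of shares of the family total, Helios+ minus Helios-, to 48.9 percentage points for Ikzf2, -24.1 for Ikzf3 and 4.08 for Ikzf4. Per kb of the longest coding transcript, an alternative chosen after seeing the data, they were -16.1 for Ikzf1, 44.5 for Ikzf2, 3.82 for Ikzf4 and -0.82 for Ikzf5. No share difference changed sign, and the cause is the length by which each count was divided. With sign flips within replicate numbers (the replicate block of a ratio), the Ikzf2 to Ikzf4 difference, which the sort selected for, was again 2.77 (exact p = 0.0625, the smallest that 5 pairs can give). Ikzf2 in Helios- cells, Ikzf4 and Ikzf5 rest on the fewest reads, 357 to 588, 188 to 950 and 223 to 335 per library. The largest SE among the members was that of Ikzf3 (0.11), which had more reads.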

Other observations

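Markers of other cell types were measured as well. The counts called are to be read against all tested genes, of which limma called 24.8%, with 14.1% higher and 10.7% lower. With the replicate block that share was 37.3%. Of 6 tested myeloid markers, limma called 1 higher, Csf1r, the receptor of a macrophage growth factor, with 61.6 ± 7.30 in Helios+ and 36.9 ± 5.84 normalized counts in Helios- cells (log2 change 0.73 ± 0.16, adjusted p = 0.00251). The rest of this list was not called. Lyz2 (log2 change 0.36), Cst3 (0.29) and Tyrobp (0.19) were higher, and Cd68 (-0.32) and Itgam (-0.05) were lower. With the replicate block 2 were called higher, Csf1r and Lyz2 (limma adjusted p = 0.000576 and 0.0175). Of 10 myeloid markers 2 had no values. The sum of the other 8 ranged from 417 to 629.8 in Helios+ and from 308 to 482 in Helios- libraries, higher in 4 of 5 replicate numbers. Of 7 tested CD8 and NK cell markers, limma called 1 higher, the granule gene Nkg7, with 67.3 ± 4.85 in Helios+ and 28.3 ± 5.21 in Helios- cells (adjusted p = 2.61e-05). The rest of this list was not called and was divided. Ncr1 (log2 change -0.49), Cd8b1 (-0.27), Gzma (-0.24) and Cd8a (-0.14) were lower, and Klrb1c (0.35) and Eomes (0.27) were higher. The median log2 change of the list was -0.14. Quantile normalization called 1 higher and 3 lower on this list, and the replicate block 1 higher and 1 lower. These sums were 511 to 588 in Helios+ and 496 to 612 in Helios- libraries. Of 6 plasmacytoid dendritic cell markers limma called 0 in either direction, against 1 higher before adjustment at p under 0.05 and with edgeR and DESeq2, and the sums were 669 to 826 in Helios+ and 668 to 817 in Helios- libraries. Of 8 erythroid and platelet markers, 4 globin genes had no values. Of the other 4, 1 passed the minimum mean and was not called by limma, edgeR or DESeq2, nor before adjustment. The sums of these 4 were 3.35 to 18.8 in Helios+ and 4.23 to 23.4 in Helios- libraries. They were lower in 5 of 5 replicate numbers at 66.2% to 90.6% of the Helios- library, but rest on very few counts. Of 10 markers of T and Treg cells limma called 3 higher, Il2ra, Ctla4 and Cd5, and 1 lower, Cd247, where 24.8% of all tested genes were called. Quantile normalization and the replicate block each called 6 higher and 1 lower on this list. The summed markers were higher in Helios+ libraries in 5 of 5 replicate numbers, at 104% to 113% of the Helios- library. In the limma fit without the block, each call but that of Cd247 ended when some single libraries were left out. These were Helios+ replicates 2, 3, 4 and 5 and Helios- replicate 4 for Il2ra (adjusted p up to 0.0697). They were Helios+ replicates 2 and 5 and Helios- replicates 1, 3, 4 and 5 for Ctla4 (up to 0.0798), and any library except Helios+ replicate 1 and Helios- replicate 3 for Cd5 (up to 0.136).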
